A study of Mus musculus with 42 samples.

Results

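The genes examined here encode mitochondrial ribosomal proteins, and they were taken as every row of the deposited mouse embryo RNA-seq table whose symbol is Mrpl or Mrps followed by a number. The rule found 41 of the 15737 genes with a unique symbol, 24 of the large subunit (Mrpl) and 17 of the small subunit (Mrps). The table covers chromosomes 1 to 11, so members on other chromosomes are not analysed here. Embryos came from superovulated ICR females crossed to ICR males, all wild type, and were pooled 3 to a library. The 9 groups were early 2-cell embryos at 34 h after hCG, late 2-cell embryos at 48 h (control, Sirt1 knockdown, TSA, FK866, or FK866+NMN) and 4-cell embryos at 58 h (FK866, FK866+NMN, or control). FK866 at 0.01 µM blocks NAMPT, the rate-limiting enzyme of NAD+ salvage, NMN at 10 µM is the product of that enzyme, and TSA at 10 nM inhibits histone deacetylases. The Sirt1 group received siRNA, Trim21 mRNA and SIRT1 antibody by injection into zygotes, which lowers the protein acutely and leaves the gene intact, and its own control was injected with scrambled siRNA and Trim21 mRNA. That control is not a column here, so the late 2-cell control stood in for it.

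The mitochondrial ribosome makes the few proteins that mitochondrial DNA encodes, all of them parts of the respiratory chain and ATP synthase. Its RNA comes from the mitochondrial genome, but every one of its proteins is encoded in the nucleus, translated in the cytosol and imported. The mouse embryo inherits a stock of maternal mRNA and mitochondria from the oocyte, and the 2-cell stage is when most embryonic transcription begins and much of the maternal mRNA is degraded.

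Each group is 1 column of FPKM (fragments scaled to exon length in kilobases and to library size, so that levels can be compared between genes). In 7 columns the values are sums over 2 libraries whose reads could be separated, and only 1 library was found in the 4-cell columns headed FK866 and FK866+NMN. Within a pair, A stands for the more deeply sequenced library and B for the other. The study calls the libraries of a group biological replicates, and the p-values measure the spread between these libraries. The 16 libraries held 3169677 to 10003481 reads, and all 41 members could be separated in every one. Of the 9 headings, 5 do not match the study's own gene tables. The column headed late 2-cell TSA holds the values listed there as 4-cell control (84 of 84 genes equal), the column headed late 2-cell Sirt1 those listed as 4-cell FK866 (84 of 84), and the column headed 4-cell control those listed as 4-cell FK866+NMN (84 of 84). The column headed 4-cell FK866 moves from late 2-cell control in the direction listed for TSA in 1203 of 1203 genes. The column headed 4-cell FK866+NMN moves in the direction listed for Sirt1 knockdown in 773 of 821. Directions are weaker evidence than equal values, as early 2-cell follows that of TSA in 1096 genes and late 2-cell FK866 that of Sirt1 in 703. The columns headed TSA and Sirt1 follow their own lists in 546 and 442. The summed level of a list of early 2-cell marker genes was 24.4 to 89.4 RPM (reads scaled to the total of a library, as FPKM are, but not to exon length) in the columns headed late 2-cell TSA, late 2-cell Sirt1 and 4-cell control, 423 and 243 in early 2-cell, 1076 and 667 in late 2-cell control, and 341 to 912 in late 2-cell FK866 and FK866+NMN, with 582 in the column headed 4-cell FK866 and 730 in that headed 4-cell FK866+NMN. This list was thus higher in late than in early 2-cell embryos and does not mark the early stage here. A list of oocyte genes was at 46 to 187 RPM in the columns headed late 2-cell TSA, late 2-cell Sirt1 and 4-cell control. It was at 232 to 830 in the others, with 507 in that headed 4-cell FK866 and 312 in that headed 4-cell FK866+NMN. Nlrp5 (1993 and 1990 reads) and Padi6 (1633 and 1655) carried most of it in early 2-cell. Zp3, another of the 4 genes summed, did not go with the sum. It had 264 and 158 reads in early 2-cell and 250 and 282, 654 and 135, and 288 and 387 in those 3 columns. Later cleavage genes, of which Tead4 had the most reads in those 3 columns, were at 141 to 466 there. They were at 12.7 to 180 in the others, with 39.7 and 43.7 in the same 2. Sirt1 mRNA stood at 32.4 and 73.1 FPKM in the column headed late 2-cell Sirt1 against 86.6 and 66.2 in late 2-cell control. It was at 7.61 FPKM in the column headed 4-cell FK866 and at 11.3 FPKM in that headed 4-cell FK866+NMN. Untreated early 2-cell embryos were as low, at 13.5 and 6.18 FPKM, so a low level is not particular to a knockdown. Columns are named by their headings below, and each of these comparisons is also given as the tables name it. Summed cumulus cell markers were at 0 to 8.36 RPM, except for 36.7 and 23.5 in those 2 single-library columns. The 36.7 came from Cyp19a1 alone (172 reads), and the 23.5 from Cyp19a1 (91) and Star (71). Foxl2, Hsd3b1 and Ptx3 had 0 reads in both. Summed blood markers were at 0.236 to 29.9 except for 160 in the column headed 4-cell FK866. There Hba-a1 had 495 reads and Hba-a2 253, while Hbb-bs had 3 and Hbb-bt and Ptprc 0.

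The stretch before the start site is shown for 6 members that passed the test in the results that follow, to show whether those that rose hold the same searched motifs. RefSeq windows on GRCm38.p6, from 250 bases before to 50 bases after the start, were matched for 35 of the 41 members. Capitals mark a searched motif on either strand. The motifs were CCGGAAG, the core bound by ETS factors such as GABP, a regulator of nuclear genes for mitochondrial proteins. The NRF-1 core was searched as CGCATGCG and the YY1 site as AAGATGGC. The TATA box was searched as TATAAA. Each sequence is the 250 bases before the start, 5′ to 3′ on the gene's own strand. Mrpl20 lies at chr4:155802628-155802877 on the plus strand, Mrpl34 at chr8:71464676-71464925 on the plus strand, Mrpl41 at chr2:24975099-24975348 on the minus strand, Mrpl51 at chr6:125191950-125192199 on the plus strand, Mrpl35 at chr6:71823785-71824034 on the minus strand and Mrps31 at chr8:22411090-22411339 on the plus strand.
Mrpl20: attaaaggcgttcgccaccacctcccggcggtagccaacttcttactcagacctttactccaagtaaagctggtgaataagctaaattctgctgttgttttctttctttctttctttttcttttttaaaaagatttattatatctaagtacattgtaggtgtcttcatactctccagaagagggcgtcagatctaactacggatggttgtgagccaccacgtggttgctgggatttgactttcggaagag
Mrpl34: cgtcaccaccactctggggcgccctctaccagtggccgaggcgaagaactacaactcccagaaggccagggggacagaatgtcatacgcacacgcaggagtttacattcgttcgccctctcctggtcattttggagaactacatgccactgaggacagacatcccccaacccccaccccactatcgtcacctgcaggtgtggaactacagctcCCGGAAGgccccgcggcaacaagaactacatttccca
Mrpl41: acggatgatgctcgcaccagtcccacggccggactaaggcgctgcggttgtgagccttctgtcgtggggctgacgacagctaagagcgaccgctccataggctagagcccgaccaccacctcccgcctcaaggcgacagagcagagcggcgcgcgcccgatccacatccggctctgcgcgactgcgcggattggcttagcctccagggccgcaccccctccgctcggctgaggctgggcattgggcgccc
Mrpl51: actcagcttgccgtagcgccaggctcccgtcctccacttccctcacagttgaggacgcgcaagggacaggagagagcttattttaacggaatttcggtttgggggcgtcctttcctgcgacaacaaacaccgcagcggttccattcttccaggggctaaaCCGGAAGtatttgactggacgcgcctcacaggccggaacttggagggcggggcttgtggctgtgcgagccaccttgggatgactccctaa
Mrpl35: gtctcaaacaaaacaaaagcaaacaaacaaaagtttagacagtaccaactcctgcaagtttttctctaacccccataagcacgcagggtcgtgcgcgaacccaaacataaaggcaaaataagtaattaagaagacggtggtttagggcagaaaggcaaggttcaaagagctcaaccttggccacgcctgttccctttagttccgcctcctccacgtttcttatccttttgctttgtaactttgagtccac
Mrps31: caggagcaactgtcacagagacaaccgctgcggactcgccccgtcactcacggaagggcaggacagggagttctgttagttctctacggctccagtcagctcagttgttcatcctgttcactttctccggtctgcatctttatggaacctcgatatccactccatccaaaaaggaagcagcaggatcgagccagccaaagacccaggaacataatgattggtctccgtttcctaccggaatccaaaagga

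In the 250 bases shown, Mrpl34 and Mrpl51 held the ETS core and the other 4 members none of the searched motifs, while Mrpl35 held the YY1 site in the 50 bases after its start. Over the whole windows, the ETS core was found in 11 of the 35 members (31.4%) and in 16.5% of 8274 protein-coding genes. The YY1 site was found in 6 members (17.1%, against 4.1% of genes), the NRF-1 core in 2 (5.71%, against 3.49%) and the TATA box in 4 (11.4%, against 10.9%). A match is a description of the letters only. The G and C content of these stretches was 41.6% for Mrpl20 and 68.8% for Mrpl41, with a median of 56.4% over members and 58.4% over genes. A protein-coding neighbour started on the opposite strand within 1000 bases upstream of the start in 8 of 41 members (19.5%). Mrpl41, Mrpl51 and Mrps5 were among them, and the share was 8.37% for protein-coding genes. Starts that overlap by more than 50 bases, as those of Mrpl46 and Mrps11 do, were not counted.

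Levels differed widely between members. Averaged over the 9 columns, Mrpl34 (273 FPKM) and Mrpl20 (112 FPKM), counterparts of the bacterial proteins of the same numbers, stood highest, followed by Mrps24 (57.5), Mrpl41 (47.7) and Mrpl4 (45.1). Mrpl33 (0.895), Mrps35 (1.13), Mrps5 (1.4), Mrpl1 (1.49) and Mrpl23 (1.50) stood lowest, although all of them encode parts of 1 particle. FPKM divide reads by the annotated exon length. That was 607 to 2617 bases for the 5 highest and 4295 to 8631 for the 5 lowest, around a median of 3291. The part of length in this order was not tested. A copy of Mrpl23, Mrpl23-ps1, had 10.2 FPKM in the column headed 4-cell control, where Mrpl23 had 4.18. The order changed between columns: in early 2-cell embryos Mrps33 (134), Mrps21 (86.4) and Mrpl48 (50.7) were highest and Mrpl20 was at 2.18 FPKM. Mrpl33 overlaps Rbks, and 11 of the 41 members overlap another protein-coding gene, whose reads cannot be told apart without strand. Use of strand in the counting is not given in the sources used here.

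The members together took 1946 and 2002 RPM in the early 2-cell libraries, 1452 and 1863 in late 2-cell control, 1207 and 1103 in late 2-cell FK866, and 1410 and 1110 in late 2-cell FK866+NMN. The columns headed late 2-cell TSA (3107 and 3142), late 2-cell Sirt1 (3594 and 3159) and 4-cell control (2952 and 2788) lay above all of these, without overlap. The 4-cell columns headed FK866 (1679) and FK866+NMN (1391) were within the range of the first 8 libraries given. In bulk samples, fewer cells and less RNA per cell cannot be told apart.

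**Figure D1:**
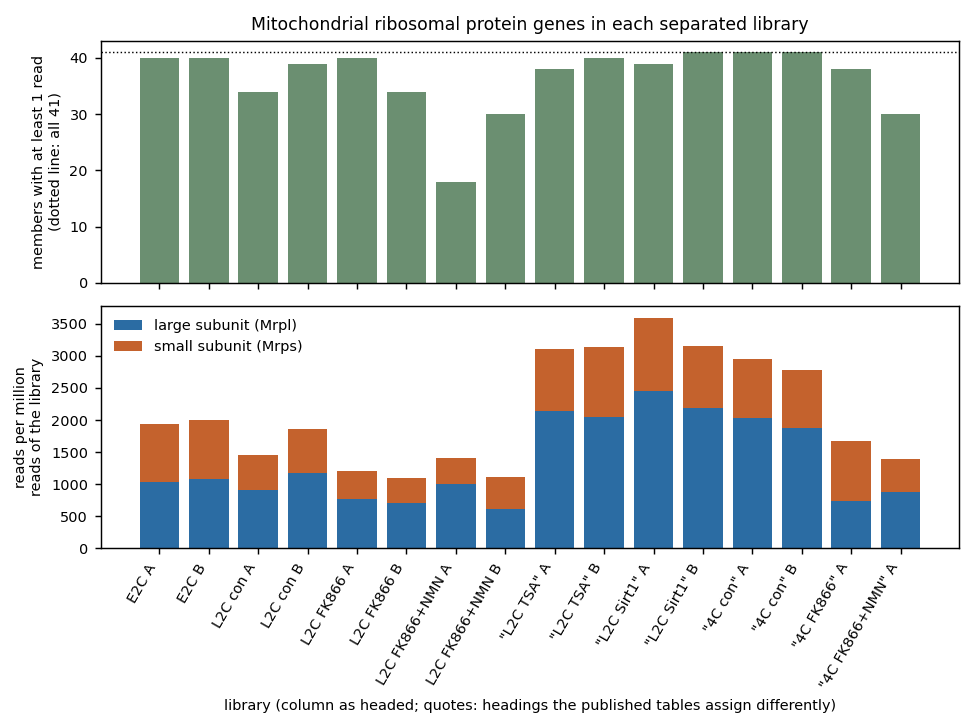
Upper bars give the number of the 41 members with at least 1 read in each separated library, and lower stacked bars give their summed level in RPM (reads scaled to the total of a library), split into large and small subunit. The 6 libraries headed late 2-cell TSA, late 2-cell Sirt1 and 4-cell control reach 2788 to 3594 RPM, and library A of late 2-cell FK866+NMN has reads for 18 members.

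Detection set a limit. Reads of all 41 members were found in 3 libraries, and of 18 members in library A of late 2-cell FK866+NMN, where 5504 of all genes had reads, against 6478 to 10205 in the other libraries. Members with at least 20 reads in one library and none in the other numbered 11 of 27 in late 2-cell FK866+NMN (40.7%, against 36.9% of all genes), 5 of 39 in late 2-cell control (12.8%, against 21.1%), 6 of 38 in late 2-cell FK866 (15.8%, against 22.8%) and 0 of 40 in early 2-cell (5.48% of all genes).

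From the early to the late 2-cell stage, single mitochondrial ribosomal protein genes changed, in both directions. Of 40 members that passed the filter of 1 FPKM per library in either column, 4 rose and 1 fell (limma, adjusted p under 0.05), beside 8.03% higher and 3.04% lower of 9004 genes. The median log2 fold change was -0.42 for members and -0.07 for all genes. The 4 that rose were all of the large subunit, which made up 23 of the 40 members tested. An unadjusted p under 0.05 was found in 14 of 40 members and in 2319 of the 9004 genes. By subunit this was 8 of 23 large and 6 of 17 small, and a difference between subunits was not tested. Mrpl33, at 0.508 and 0.412 FPKM in early 2-cell and 0 in late 2-cell control, did not pass the filter.

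Mrpl20 had 3.20 and 1.16 FPKM in the early 2-cell libraries and 65.5 and 56.0 in late 2-cell control. This was the largest rise of any member, with no overlap between stages, and it amounted to a log2 fold change of 4.35 (SE 0.47, limma adjusted p = 1.20e-04). Mrpl34 went from 44.4 and 24.1 FPKM to 163 and 295, a log2 fold change of 2.71 (SE 0.51, limma adjusted p = 0.00493). Without library B of either column its adjusted p was up to 0.0637.

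Mrpl41, a mitochondria-specific large-subunit protein, had 12.6 and 12.9 FPKM in the early libraries and 63.9 and 92.2 in the late ones, a log2 fold change of 2.50 (SE 0.49, limma adjusted p = 0.00621). Mrpl51, which also has no bacterial counterpart, had 8.99 and 1.54 FPKM and then 35.1 and 31.9, a log2 fold change of 2.77 (SE 0.57, limma adjusted p = 0.00884). The early libraries of Mrpl51 differed from each other more than those of Mrpl41 did, and neither gene overlapped between stages. Both calls were lost without library B of early 2-cell and without 1 of the late 2-cell control libraries (highest adjusted p 0.0582 for Mrpl41 and 0.0922 for Mrpl51).

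Mrps33, a mitochondria-specific small-subunit protein, ran the other way. It had 127 and 141 FPKM in early 2-cell and 14.2 and 10.5 in late 2-cell control, a log2 fold change of -3.35 (SE 0.88, limma adjusted p = 0.0311). The stages were far apart, but the call was lost in each of the 4 fits that left out 1 library (limma adjusted p = 0.113 to 0.172) and with a pseudocount of 0.1 (0.201). Mrps21 had a fitted change of -3.48, from 57.4 and 115 FPKM to 11 and 3.57, and missed the threshold (SE 1.36, limma adjusted p = 0.133). It was named after its values were seen, as the member at the lower end.

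**Figure D2:**
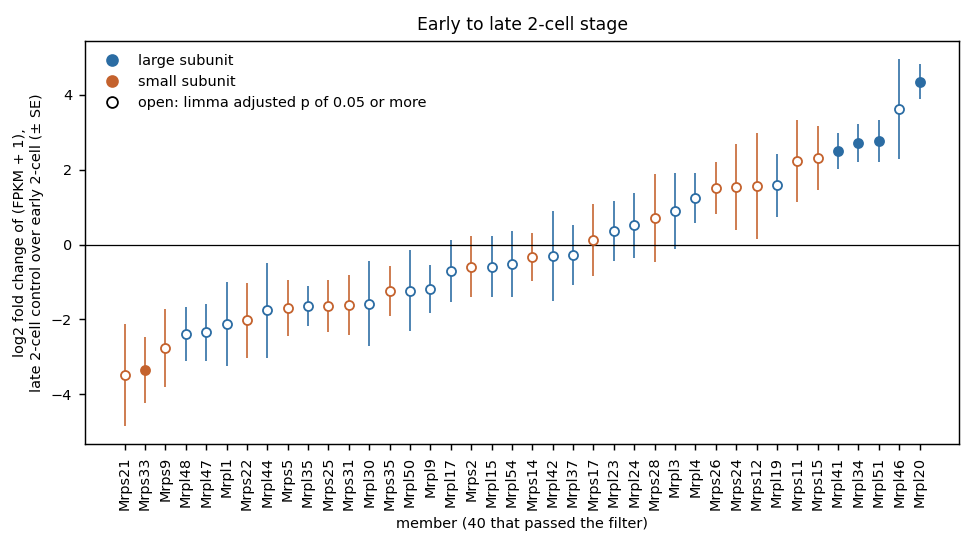
Points give the log2 fold change of FPKM + 1 from early 2-cell to late 2-cell control for each of the 40 members that passed the filter, bars give ± SE, colour gives the subunit, and filled points have a limma adjusted p under 0.05. Members run from -3.48 to 4.35, with Mrpl20, Mrpl51, Mrpl34, Mrpl41 and Mrps33 filled.

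Mrpl48 was the member with the most reads in early 2-cell embryos, with 45.4 and 56.0 FPKM against 8.29 and 9.31 in late 2-cell control (log2 fold change -2.39, SE 0.73, limma adjusted p = 0.0626). A processed copy of it, Mrpl48-ps, is a row of its own. It had 102 and 122 FPKM in early 2-cell and 25.3 and 25.7 in late 2-cell control (log2 fold change -2.08, SE 0.57, limma adjusted p = 0.0397). Reads that fit both loci could have been given to either, so the level of Mrpl48 is uncertain.

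Among members with a known place in the particle or in disease, none other than those above passed the threshold at this transition. Mrps12, the counterpart of the bacterial decoding-site protein, had 8.18 and 3.93 FPKM in early 2-cell and 7.22 and 47.6 in late 2-cell control, so its stages overlapped. Mrpl3, near the site of peptide bond formation, had 4.53 and 4.14 FPKM and then 9.64 and 8.22. Mrps22, mutated in human mitochondrial disease, had 11 and 9.87 FPKM and then 2.73 and 1.14, and Mrps9 had 9.94 and 11.8 and then 0.638 and 0.833. Of these, Mrpl3 was higher and Mrps22 and Mrps9 were lower in both late libraries.

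Mrpl44, an RNase III family protein of the large subunit, had 41.5 and 57.1 FPKM in early 2-cell and 5.31 and 33.3 in late 2-cell control. Mrpl19 had no read in either early 2-cell library and 55 and 57 reads in late 2-cell control, which is 1.55 and 2.51 FPKM. Mrps2 overlapped between stages, with 22.2 and 37.4 FPKM and then 27.3 and 13.0. Mrps28 had 13.6 and 8.80 FPKM and then 21.3 and 16.3. Mrps5 had 2.72 and 4.26 and then 0 and 0.876, and Mrps35 had 2.57 and 2.64 and then 0.870 and 0.250. None of these differences passed the test, although Mrpl44, Mrpl19, Mrps28, Mrps5 and Mrps35 did not overlap between stages. Every library of one stage lay beyond every library of the other in 14 members upwards and 17 downwards (30.7% and 34.2% of all genes). Between column means, 12 members differed by over 2-fold upwards and 15 downwards (32.7% and 31.2% of all genes).

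At the late 2-cell stage, FK866 changed no member past the threshold among 36 that passed the filter, and no gene among 8548 (percent called 0). Of the members 1, Mrpl41, had an unadjusted p under 0.05, as had 521 of all genes, and a fit that kept empty columns in the spread called 79 genes and no member. Mrpl41 had 39.4 and 25.3 FPKM under FK866 against 63.9 and 92.2 in control, a log2 fold change of -1.25 (SE 0.49, limma adjusted p = 0.756). The members' median was -0.40 and that of all genes -0.07. It depended on library B of the control, without which it was 0.03. Mrpl20 had 26.3 and 52.3 FPKM under FK866, both below the control, and Mrpl34 had 257 and 137 FPKM, which overlapped it. Libraries did not overlap in 3 members upwards and 12 downwards (16.3% and 20.3% of all genes).

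With NMN added to FK866, 2 of 35 members fell relative to FK866 alone and none rose (limma, adjusted p under 0.05), beside 0.897% lower and 0.0123% higher of 8140 genes, 0.909% in all. Mrpl41 had 0 and 1 read in the FK866+NMN libraries and 314 and 183 in the FK866 libraries. As RPM this is a 402-fold difference (exact 95% interval 71.8 to 15899, counting error only), with a limma adjusted p of 0.00104. Mrpl35 had no read in either FK866+NMN library and 303 and 184 in the FK866 libraries, so it was at least 61.7-fold lower, taking 3 reads per library as the floor (limma adjusted p = 0.0355). Both calls were lost in the fit on these 2 columns alone, with a limma adjusted p of 0.576 for Mrpl41 and 0.846 for Mrpl35. That for Mrpl35 was also lost without either FK866 library (0.201 and 0.135), with a pseudocount of 5 (0.222) and after centring (0.13).

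Both genes were low in the same 2 libraries that lacked reads for 23 and 11 of the 41 members, and the part of that loss in the result was not tested. Not every member was low there. Mrpl51 had 18.6 and 19.4 FPKM with NMN and 24.9 and 22.3 without, and Mrps14 had 17.7 and 31.3 against 14.4 and 19.7. The members' median log2 fold change was -1.02 and that of all genes -0.50, and centring each library on its median turned them to 0.41 and 0.92. Libraries did not overlap in 4 members upwards and 13 downwards (9.52% and 25.2% of all genes). Leaving out library B of FK866+NMN raised the number of members called to 10, and leaving out library A of FK866 moved the median to -0.23.

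The columns headed late 2-cell TSA, late 2-cell Sirt1 and 4-cell control had the highest levels of the mitochondrial ribosomal protein genes. They share 1 control, late 2-cell control, and their values are given side by side. Against it, 4 members rose and 1 fell of 41 in the column headed late 2-cell TSA (limma, beside 3.86% higher and 8.14% lower of 8196 genes, 12% in all), 3 rose and 1 fell of 39 in the column headed late 2-cell Sirt1 (2.79% and 5.88% of 8310 genes, 8.68% in all), and 3 rose and none fell of 40 in the column headed 4-cell control (2.12% and 4.2% of 8400 genes, 6.32% in all). Median log2 fold changes of the members were 1.01, 1.09 and 1.07, and those of all genes were -0.41, -0.22 and -0.10. Positive fold changes were seen in 34 of 41, 32 of 39 and 31 of 40 members. Read by the tables, the first of these comparisons is the step from late 2-cell to 4-cell control, and the others are 4-cell FK866 and 4-cell FK866+NMN over the late 2-cell control.

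Mrpl20 had 235 and 238 FPKM in the column headed late 2-cell TSA, 396 and 236 in that headed late 2-cell Sirt1 and 203 and 266 in that headed 4-cell control. All 6 values lay above the 65.5 and 56.0 of late 2-cell control. The log2 fold changes were 1.95, 2.32 and 1.92 (SE 0.47 each, limma adjusted p = 0.0192, 0.012 and 0.0343). Mrpl35, counterpart of the bacterial protein of that number, had 23.7 and 41.2, 29.3 and 31.0, and 24.9 and 25.1 FPKM against 3.27 and 3.40 in control. Its log2 fold changes were 2.90, 2.85 and 2.58 (SE 0.53 each, limma adjusted p = 0.00549, 0.00908 and 0.0184).

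Mrps31, a mitochondria-specific small-subunit protein, stood out by having at most 1 read in each library of late 2-cell control, FK866 and FK866+NMN. It had no read in either late 2-cell control library, 1 and 0 under FK866 and none under FK866+NMN. It then had 21.4 and 24.7 FPKM in the column headed late 2-cell TSA, 5.68 and 19.7 in that headed late 2-cell Sirt1 and 11.4 and 14.3 in that headed 4-cell control. These are at least 129-, 70.6- and 71.5-fold higher than a floor of 3 reads per control library (limma adjusted p = 0.00549, 0.0249 and 0.0246). In early 2-cell embryos it had 1.02 and 3.60 FPKM, above the 6 late 2-cell libraries of control, FK866 and FK866+NMN.

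**Figure D3:**
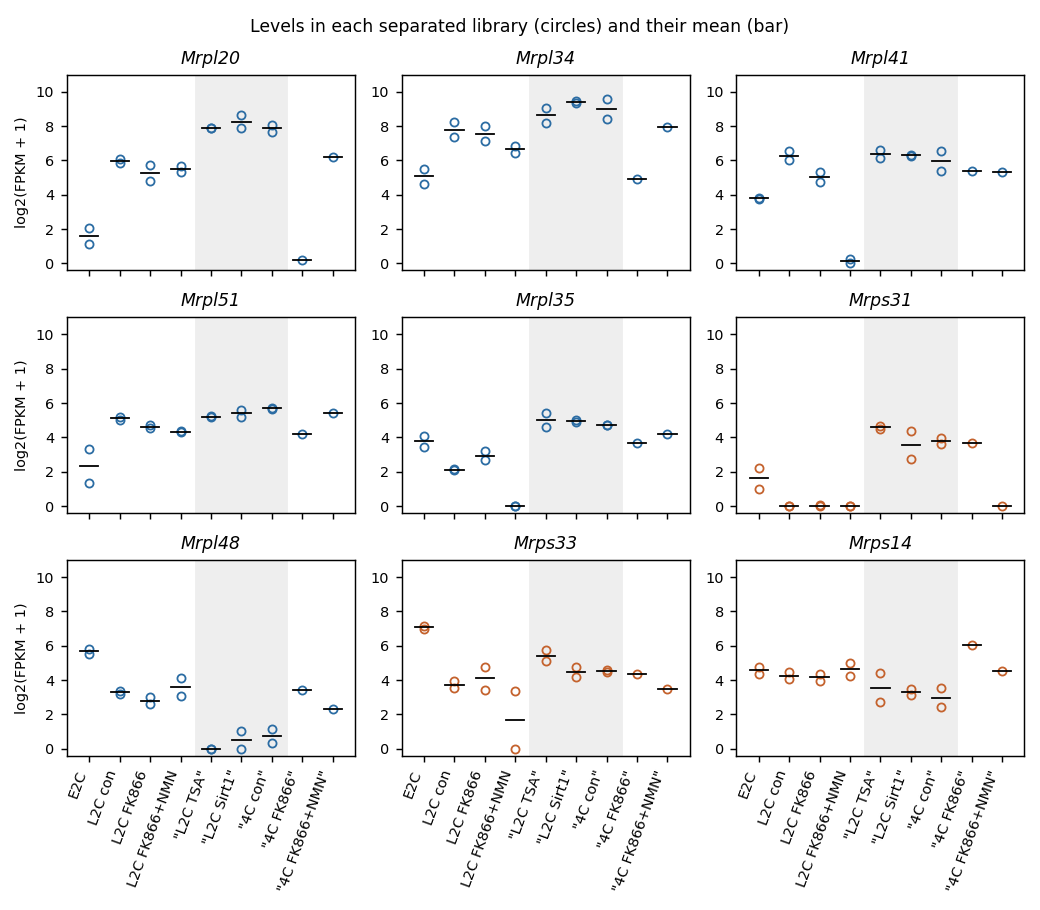
Circles give log2(FPKM + 1) in each separated library and bars the mean of a column for 9 members, blue for the large and orange for the small subunit, with E2C for early 2-cell, L2C for late 2-cell, 4C for 4-cell, and quotes on the 5 headings that the tables name otherwise. In the shaded columns Mrpl20, Mrpl35 and Mrps31 lie above late 2-cell control, and Mrpl48 lies below it.

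Mrpl47, counterpart of a bacterial protein at the polypeptide exit, had 0 and 1.96 FPKM in late 2-cell control and 24.3 and 11.9 in the column headed late 2-cell TSA (log2 fold change 3.39, SE 0.77, limma adjusted p = 0.0163). It had 7.49 and 8.14 FPKM in the column headed late 2-cell Sirt1 and 9.42 and 9.55 in that headed 4-cell control, above the control in each library and short of the threshold. The gene overlaps Actl6a and Ndufb5, and the call was lost without library A of either column (limma adjusted p = 0.101 and 0.146). Mrpl48 fell in the columns headed late 2-cell TSA and late 2-cell Sirt1, from 441 and 316 reads in control to 0 and 0 in the first, at least 160-fold lower than control (limma adjusted p = 0.0144), and to 0 and 27 reads in the second (limma adjusted p = 0.0402). The column headed 4-cell control had 56 and 9 reads of it (limma adjusted p = 0.0684). Mrpl48-ps fell in all 3 columns, with 0 and 0, 0 and 1, and 11 and 4 reads against 105 and 68 in control (limma adjusted p = 6.28e-04, 0.00162 and 0.0108).

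With columns as headed, Mrps31 over late 2-cell control held in the column headed late 2-cell TSA under all 11 alternatives, and no member did so in the other 2 columns. With any 1 of the 4 libraries compared left out, no member passed in the column headed 4-cell control, and at most 1 passed in that headed late 2-cell Sirt1. Every library lay above every control library in 26, 25 and 25 members, against 24.6%, 25% and 28.1% of all genes, and below in 3, 4 and 4, against 31.6%, 29.5% and 28.1%. Centring each library on its median gave 12 members higher and 0 lower in the column headed late 2-cell TSA, and 4 higher and 0 lower in that headed late 2-cell Sirt1.

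Read by the tables, FK866 and NMN at the 4-cell stage compare these same 3 columns with one another. FK866 then changed 0 of 40 members past the threshold (limma, 0.0427% of 7025 genes, 1 member and 396 genes with an unadjusted p under 0.05), with a median of -0.10. NMN added to FK866 changed 0 of 39 (limma, 0% of 7349 genes, no member and 144 genes with an unadjusted p under 0.05), with a median of -0.14. Mrpl34 had 526 and 292 FPKM in the column read as 4-cell control, 642 and 709 in that read as FK866, and 748 and 344 in that read as FK866+NMN. The last overlapped with each of the others, and both libraries read as FK866 lay above both of the control.

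The 4-cell columns headed FK866 and FK866+NMN have 1 library each, which the fit takes to vary like the others. The differences have no replicate check on that side and compare these libraries rather than the conditions. By heading, the fit called 2 members lower and 2 higher of 40 in the 4-cell FK866 library over 4-cell control (limma, beside 7.08% lower and 6.1% higher of 8872 genes, 13.2% in all). Mrpl20 had 1 read there, or 0.128 FPKM, against 203 and 266 FPKM, which in RPM is 1807-fold lower (exact 95% interval 324 to 71376; limma adjusted p = 3.62e-05). Mrpl34 had 28.8 FPKM against 748 and 344, a log2 fold change of -4.09 (SE 0.62, limma adjusted p = 0.00195). For Mrpl20 this was the lowest of the 16 libraries, and for Mrpl34 it lay between the early 2-cell libraries. With columns as headed, both calls held under all 8 alternatives, and with columns as the tables name them neither was called (log2 fold changes 0.37 and 0.78).

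Mrps14, counterpart of a bacterial protein of the small-subunit head, had 66.3 FPKM against 10.7 and 4.36, a log2 fold change of 3.09 (SE 0.79, limma adjusted p = 0.0246). Mrps25 had 25.9 FPKM against 3.30 and 0.786, a log2 fold change of 3.28 (SE 0.85, limma adjusted p = 0.026), and it overlaps Nr2c2. Both calls were lost without library B of the column headed 4-cell control, with limma adjusted p of 0.142 and 0.149, and that of Mrps25 also after centring (0.0775). Centring left 1 member higher and 5 lower in this comparison. In the column headed 4-cell FK866+NMN, Mrpl20 had 820 reads, 71.3 FPKM, against 1 read in that headed 4-cell FK866. As RPM this is a 556-fold difference between 2 single libraries (exact 95% interval 99.5 to 21983, counting error only). With the spread borrowed from the other columns, the fit singled out Mrpl20 alone of 37 members, beside 0.249% higher and 0.0118% lower of 8447 genes, 0.26% in all, which is no test of NMN. In the column headed 4-cell FK866+NMN, 11 members had no read, among them Mrps28, Mrps21, Mrpl37 and Mrps31, which had 29.5, 18.2, 13.4 and 11.6 FPKM in that headed 4-cell FK866.

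Read by the tables, the same 2 libraries are TSA and Sirt1 knockdown at the late 2-cell stage. Each is still 1 library with a spread taken from other columns, so the values compare these libraries rather than the conditions. Under TSA, 2 of 38 members fell against late 2-cell control and none rose (limma, beside 1.56% lower and 0.236% higher of 8915 genes, 1.79% in all): Mrpl20, with 1 read against 711 and 388 (log2 fold change -5.77, SE 0.58, limma adjusted p = 0.00103), and Mrpl34, with 28.8 FPKM against 163 and 295 (log2 fold change -2.88, SE 0.62, limma adjusted p = 0.0411). In early 2-cell embryos the levels were 3.20 and 1.16 FPKM for Mrpl20 and 44.4 and 24.1 for Mrpl34. Median log2 fold changes were 0.49 for members and 0.17 for all genes. Under Sirt1 knockdown, 0 of 34 members passed (limma, 0% of 8164 genes), with 3 members and 466 genes at an unadjusted p under 0.05, and the median was -0.47. Summed cumulus markers were highest in these 2 libraries and summed blood markers in the one headed 4-cell FK866. Few genes of each list carried these sums, as given above, and their part in the result was not tested.

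The effect of FK866 was set against itself at the 2 stages in 1 fit, in which by heading the 4-cell FK866 side is 1 library. By heading, the difference of its log2 fold change (4-cell minus late 2-cell) passed the threshold in 2 of 41 members, both negative (limma, 1.54% negative and 1.02% positive of 10220 genes, 2.55% in all). It was -7.00 for Mrpl20 (SE 0.75, limma adjusted p = 0.0018) and -3.87 for Mrpl34 (SE 0.80, limma adjusted p = 0.0309). Mrps14 (3.18), Mrpl24 (3.80) and Mrpl48 (3.14) followed and missed the threshold, with limma adjusted p-values of 0.133, 0.179 and 0.199. The call for Mrpl34 was lost in the 5 fits without a library of late 2-cell control, late 2-cell FK866 or library A of the column headed 4-cell control (adjusted p up to 0.103). Read by the tables, no member passed (limma, 0% of 9618 genes, no member and 420 genes with an unadjusted p under 0.05), and Mrpl20 had a difference of 1.06.

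Single genes of the other parts of mitochondrial gene expression passed the threshold too. From early to late 2-cell, 8.03% of all 9004 genes were called higher and 3.04% lower (limma), beside which the counts of these lists stand. Of 17 genes for mitoribosome assembly and rRNA modification, 3 rose and none fell from early to late 2-cell: Trub2, a pseudouridine synthase (log2 fold change 4.39), Rcc1l (3.92) and Noa1, a GTPase of small-subunit assembly (3.30), with limma adjusted p-values of 0.00914, 0.0316 and 0.0366. Of 7 genes of mitochondrial DNA replication, transcription and RNA processing, 1 rose, Tfb2m, a subunit of the mitochondrial transcription initiation complex (log2 fold change 2.15, limma adjusted p = 0.0141). None of 8 translation factors, 9 genes of aminoacyl-tRNA synthesis, 3 biogenesis regulators and 5 mitoribosomal proteins under other names passed.

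In late 2-cell embryos with FK866+NMN, Mrrf, the mitochondrial ribosome recycling factor, was at 0 FPKM against 10.2 with FK866 (limma adjusted p = 0.0458), the only one of these genes called. Tufm, the mitochondrial elongation factor Tu, rose in the columns headed late 2-cell TSA (66.1 FPKM), late 2-cell Sirt1 (67.8) and 4-cell control (63.6) over the 4.80 FPKM of late 2-cell control (limma adjusted p = 0.0102, 0.0142 and 0.0227). Nsun4, an rRNA methyltransferase, fell in the same columns from 37.9 FPKM to 1.74, 5.51 and 5.47 (limma adjusted p = 0.00188, 0.0321 and 0.0365). Polrmt, the mitochondrial RNA polymerase, rose in the first pair, to 17.2 and 20.5 FPKM from 1.50 (limma adjusted p = 0.0428 and 0.0375). Ngrn, needed for mitochondrial rRNA stability, fell in the column headed late 2-cell Sirt1, from 54.2 to 11.7 FPKM (limma adjusted p = 0.0112). Read by the tables, the columns headed late 2-cell TSA, late 2-cell Sirt1 and 4-cell control are 4-cell control, FK866 and FK866+NMN, each over late 2-cell control. The shares of all genes called in these comparisons are those given above for the members.

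In the single library headed 4-cell FK866 some of these genes ran the other way against 4-cell control. Nsun4 was at 100 FPKM against 5.47 (log2 fold change 4.03). Polrmt was listed at 0 against 16.6, Trub2 was at 0.575 against 37.6, the RNA helicase Ddx28 was listed at 0 against 41.8, and Nrf1, a transcription factor of nuclear genes for mitochondria, was at 4.22 against 33.3. Log2 fold changes were -4.11 for Polrmt, -4.56 for Trub2, -5.38 for Ddx28 and -2.72 for Nrf1. These genes were named as those past the threshold of that fit, which takes its spread from other columns. The values compare that library rather than the condition. Read by the tables, FK866 at the 4-cell stage compares other columns, and no gene of these lists passed there (limma, 0.0427% of 7025 genes). The library headed 4-cell FK866 is then late 2-cell TSA, still 1 library, to be set against late 2-cell control. Nsun4 was at 37.9 FPKM in that control, Trub2 at 39.4 and Polrmt at 1.50.

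Genes for the ribosome of the cytosol gave a different picture at the first step. From early to late 2-cell, 38 of 51 cytosolic ribosomal protein genes rose and none fell, with a median log2 fold change of 3.02, beside 4 of 40 and -0.42 for the mitochondrial ones. Subunits of oxidative phosphorylation that are encoded in the nucleus had 3 higher and 1 lower of 43 and a median of -0.00. In the column headed 4-cell control over late 2-cell control, the medians were 1.53 for the cytosolic ribosome, 1.07 for the mitochondrial ribosome and 0.70 for oxidative phosphorylation. In the single library headed 4-cell FK866 over the column headed 4-cell control they were -2.47, -0.52 and -0.82, beside 0.43 for all genes. Read by the tables, the step from late 2-cell to 4-cell gave 1.75, 1.01 and 0.98. FK866 at the 4-cell stage then gave -0.05, -0.10 and -0.05, beside 0.11 for all genes. The difference between these groups was not tested.

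**Figure D4:**
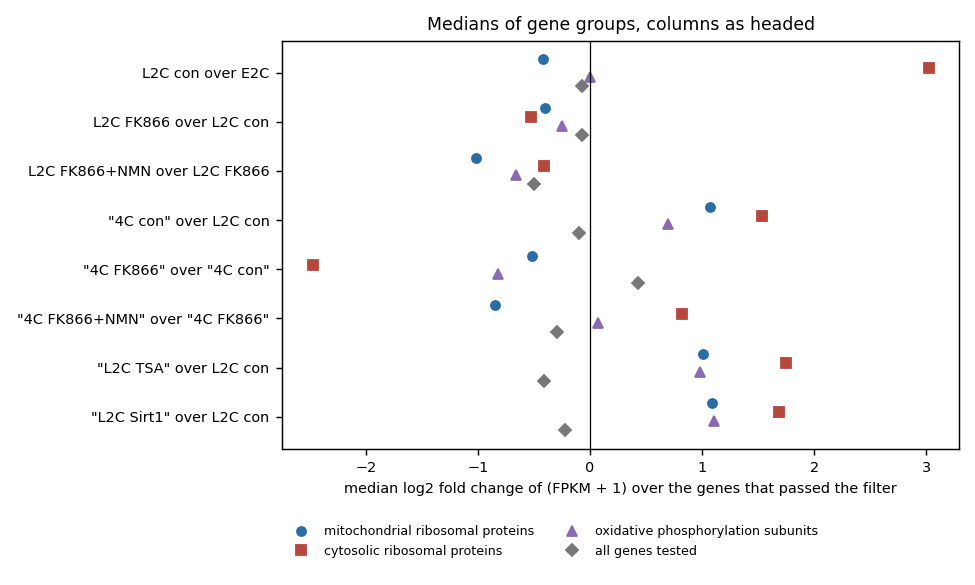
Symbols give the median log2 fold change of FPKM + 1 over the genes of each group that passed the filter, for the 8 comparisons with columns as headed (E2C, L2C and 4C as above, quotes on headings that the tables name otherwise). The mitochondrial ribosomal proteins are at -0.42 and the cytosolic ones at 3.02 from early to late 2-cell, and both are above 1 in the columns headed late 2-cell TSA, late 2-cell Sirt1 and 4-cell control.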

How the data were processed

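RNA-seq of pooled mouse embryos gave 18 RNA samples in 9 groups. Another 24 samples of H3K27ac binding are not analysed here. Per the study's methods, the authors used FastQC and Trim Galore on the reads, HISAT2 against mm10 for alignment and featureCounts for counting, then made FPKM from the counts and ran DESeq2. The deposited table holds FPKM, 1 column per group, and no counts. Versions are not given in the sources used here.

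FPKM values were whole multiples of the worth of 1 read, so reads of each library were separated from a column with the exon lengths of GRCm38 for 96.99 to 97.79% of values above 0. Depth was 3169677 to 10003481 reads per library. Intervals and floors cover counting error only. limma 3.58.1 in R 4.3.3 was fitted to log2(FPKM per library + 1) over all 16 libraries, 1 mean per column, for genes at 1 FPKM per library or more in either column, with Benjamini-Hochberg adjustment and a threshold of 0.05. Fold changes on this scale understate those of low genes. A gene's spread was taken from columns with reads of it, because on simulated data columns without any read shrank the spread and gave false calls. This departs from the design as first written, which is kept as an alternative. Figures and summaries were made in Python 3.11.15.

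The members, the lists and the tests were chosen with earlier results of these data known. Named members were those past the threshold in a comparison, the 5 highest and 5 lowest by mean FPKM, a list with known roles, called genes of the pathway lists, and the 5 with the smallest p for the difference between stages. Columns were read by their headings, and by the study's gene tables as an alternative. Other alternatives were the pseudocount, the filter, centring each library, a fit on the compared columns, and leaving out each library.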

Additional observations from a re-analysis of the deposited data

Results flagged for a closer look

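With columns taken by their headings, the fitted effect of FK866 differed between the 4-cell and the late 2-cell stage in 2 members past the threshold, in a fit whose 4-cell FK866 side is 1 library with a spread taken from the others. The difference of log2 fold changes (4-cell minus late 2-cell) was -7.00 for Mrpl20 (SE 0.75, limma adjusted p = 0.0018) and -3.87 for Mrpl34 (SE 0.80, limma adjusted p = 0.0309). Both compare that library rather than the condition, and the study's gene tables place it with TSA at the late 2-cell stage. With columns named as in the tables, no member differed between the stages past the threshold.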

How the results depend on the processing

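No paired analysis was possible because the columns carry no replicate numbers. With columns as headed, no direction of a called member was reversed. With columns as the tables name them, Mrpl20 turned from 1.95 to -5.77 for TSA (limma adjusted p = 0.0192 and 0.00103), and the following turned sign and were no longer called: Mrpl48 for TSA (0.11), Mrpl20 (0.37), Mrpl34 (0.78), Mrps14 (-0.26) and Mrps25 (-0.28) for FK866 at the 4-cell stage, Mrpl20 for NMN there (-0.40), and Mrpl20 (1.06) and Mrpl34 (1.01) for the difference between stages. With a pseudocount of 5, 8 members were called from early to late 2-cell (median -0.25) and 1 for NMN at the late 2-cell stage, and medians were 0.61 (column headed 4-cell control), 0.50 (headed late 2-cell TSA), 0.59 (headed late 2-cell Sirt1) and -0.47 (headed 4-cell FK866+NMN). With a pseudocount of 0.1 medians were -2.18 for NMN late and 1.57 for the column headed late 2-cell Sirt1. A filter at 5 FPKM gave 5, 8 and 7 members called in the columns headed 4-cell control, late 2-cell TSA and late 2-cell Sirt1, the last with a median of 1.47. Centring each library gave 1 call and a median of 0.41 for NMN late, 12 calls and 2.06 in the late 2-cell TSA column, and medians of 1.61 (headed late 2-cell Sirt1), -1.17 (headed 4-cell FK866) and -0.35 (headed 4-cell FK866+NMN). Centring moved the median of all genes from -0.50 to 0.92 for NMN late, from -0.41 to 0.65 for the late 2-cell TSA column and from 0.43 to -0.22 for the 4-cell FK866 column. A fit on the compared columns called 12 members from early to late 2-cell, 0 for NMN late and 7 for the column headed late 2-cell Sirt1.

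Keeping columns without reads in the spread, an alternative chosen after seeing the data, called 10 members from early to late 2-cell, 5 in the column headed 4-cell control, 9 in that headed 4-cell FK866, 4 in that headed 4-cell FK866+NMN, and 8 each in those headed late 2-cell TSA and late 2-cell Sirt1. Over all genes it called 1913, 960, 2654, 904, 1517 and 1171 in the same order, against 997, 531, 1169, 22, 983 and 721, so the rise was not particular to the members. Counts of members with libraries that did not overlap, and of members past 2-fold, were 31 and 27 from early to late 2-cell. They were 15 and 8 for FK866 late, 17 and 22 for NMN late and 29 and 22 for the column headed 4-cell control. They were 33 and 24 for 4-cell FK866 (51% of all genes upwards and 36.8% downwards without overlap). For 4-cell FK866+NMN they were 37 and 26, where 1 library on each side fixes that none overlap. For each of late 2-cell TSA and late 2-cell Sirt1 they were 29 and 23. Past 2-fold, members upwards and downwards were 2 and 6 for FK866 late (18.3% and 20.3% of all genes). For NMN late they were 7 and 15 (19% and 33.9%). For the column headed 4-cell control they were 18 and 4 (24.5% and 33.1%). They were 20 and 3 for late 2-cell TSA (23.6% and 40.6%) and for late 2-cell Sirt1 (24.6% and 36%). They were 6 and 18 for 4-cell FK866 (41.1% and 33.4%) and 10 and 16 for 4-cell FK866+NMN (25.3% and 34.9%). Columns named as in the tables gave 5 members called from late 2-cell to 4-cell, 0 for FK866 at the 4-cell stage (median -0.10), 0 for NMN there (-0.14), 2 for TSA (0.49), 0 for Sirt1 (-0.47) and 0 for the difference between stages.

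Leaving out 1 library at a time gave 1 to 4 members called from early to late 2-cell (medians -0.60 to -0.18), 0 to 0 for FK866 late (-0.57 to 0.03), 1 to 10 for NMN late (-1.43 to -0.23), 0 to 0 for the column headed 4-cell control (0.72 to 1.16), 2 to 4 for 4-cell FK866 (-0.65 to -0.47), 2 to 4 for late 2-cell TSA (0.75 to 1.19) and 0 to 1 for late 2-cell Sirt1 (0.71 to 1.18). The cause of these changes was not tested. With 1 or 2 libraries a group, differences smaller than the spread between libraries were not detectable at this depth.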
